A study of Caenorhabditis elegans with 2 samples.

Results

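Peaks of a tagged nuclear hormone receptor inside the introns of X-linked genes were examined in Caenorhabditis elegans. Chromatin immunoprecipitation and sequencing had been carried out on whole larvae of strain OP339 at the second larval stage (L2), males and females pooled, with 2 biological replicates of 1 group. The strain carries the unc-119(ed3) allele and the transgene wgIs339, an insertion for the nuclear receptor gene nhr-129 that yields an eGFP-tagged protein (eGFP is a green fluorescent tag). The labels name nhr-129 as the antibody target and the tag is eGFP, so whether the antibody recognised the tag or the receptor is not stated. No untagged strain entered the analysis, so peaks that do not depend on the tagged receptor cannot be told apart from those that do. From whole animals it is also unknown which tissue gave a peak. Of the 6626 peaks that passed the authors' reproducibility threshold, 1402 lay on the X chromosome, and 332 of those were intronic. A peak was counted as intronic when its summit lay within a protein-coding gene, in no exon of any coding gene, and outside every promoter window, set here as 1000 bp before to 100 bp after a coding gene start. The 332 peaks made up 23.7% of the X peaks (95% Wilson interval 21.53 to 25.98%) and 5.01% of all peaks (4.51 to 5.56%). The sources used here give no read depth. The intervals reflect counting error alone.

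Nuclear hormone receptors are transcription factors that bind short DNA elements and often respond to lipophilic ligands, and the worm genome encodes an unusually large family of them. Introns of worm genes are mostly short, but long introns, and first introns above all, are known to carry enhancers, internal promoters of shorter transcripts, and small RNA genes. The X chromosome of the worm is bound in hermaphrodites by the dosage compensation complex, which is recruited at elements that share a GC-rich motif and lowers expression from both X chromosomes.

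The 101 bp around 10 summits, picked as examples of the motifs described later and not as the strongest, are printed in lower case on the + strand of WBcel235 (ce11). Strong summits such as that of pdk-1 held none of the motifs marked here. Capitals mark matches, on either strand, to the motifs listed for each group, and letters of touching matches run together. The first pair holds GCGCAGGG, the core of the dosage compensation motif, or the related CGCGNAGGG, and Y41G9A.17 also holds GATAA, the GATA factor site. The next 4 hold TGATGNAA, close to the composite element of C/EBP and ATF proteins known from mammals, with GATAA or GAGAGA matches beside it in some. The kin-20 and act-4 summits show the GA repeats (GAGAGA), beside runs of AC that are left in lower case. In C06G1.1 and mltn-13 a tRNA gene lies within 200 bp, and GTTCNANNC, the B box of tRNA promoters, is capitalised, beside a GAGAGA match in C06G1.1.
mom-1, chrX:6296512-6296612: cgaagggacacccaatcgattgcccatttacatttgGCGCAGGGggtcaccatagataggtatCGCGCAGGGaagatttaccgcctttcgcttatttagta
Y41G9A.17, chrX:2997053-2997153: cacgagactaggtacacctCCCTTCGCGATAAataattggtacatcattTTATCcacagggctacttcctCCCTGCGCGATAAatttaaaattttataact
ZK470.2, chrX:4142781-4142881: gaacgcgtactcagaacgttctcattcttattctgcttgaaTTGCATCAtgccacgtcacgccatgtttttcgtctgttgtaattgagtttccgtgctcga
mdl-1, chrX:6743026-6743126: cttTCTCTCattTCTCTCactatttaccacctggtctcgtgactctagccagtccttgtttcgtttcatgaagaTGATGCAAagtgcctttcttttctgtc
H28G03.2, chrX:5213182-5213282: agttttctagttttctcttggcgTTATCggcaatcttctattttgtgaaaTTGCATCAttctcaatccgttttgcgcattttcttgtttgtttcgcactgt
bcat-1, chrX:12878106-12878206: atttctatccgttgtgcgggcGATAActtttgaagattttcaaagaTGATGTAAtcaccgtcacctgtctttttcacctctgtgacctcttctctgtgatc
kin-20, chrX:15275465-15275565: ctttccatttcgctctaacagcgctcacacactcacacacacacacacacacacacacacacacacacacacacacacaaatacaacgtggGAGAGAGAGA
act-4, chrX:4962441-4962541: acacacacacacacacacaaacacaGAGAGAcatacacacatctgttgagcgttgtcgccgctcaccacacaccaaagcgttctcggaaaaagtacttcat
C06G1.1, chrX:16634828-16634928: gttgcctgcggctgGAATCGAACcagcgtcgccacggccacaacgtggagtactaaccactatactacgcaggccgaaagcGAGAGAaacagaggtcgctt
mltn-13, chrX:4444250-4444350: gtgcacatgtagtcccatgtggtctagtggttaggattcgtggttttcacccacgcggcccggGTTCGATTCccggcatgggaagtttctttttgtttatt

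The signal of the 332 peaks, a score set by the authors' peak caller whose scale is unknown here, ran from 63.4 to 1609 with a median of 118. The quartiles were 83.0 and 191. The median was 135 over the 523 promoter peaks of X, 125 over the 475 intergenic peaks of X, and 111 over the 1221 intronic peaks of the autosomes. Among the 1000 strongest peaks of the whole list 48 were intronic on X, 14.5% of the 332, and 6 were among the 100 strongest. Most of the intervals, 255 of 332, had a width of 370 bp. A pair of summits could share 1 interval, as in Y41G9A.17, and merging overlapping intervals left 323 peaks. No test between groups of peaks was run, because the design holds 1 group and peaks from the same pair of libraries are not replicates. Differences between groups of peaks are therefore given as values only.

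Both replicates held a call at nearly all of these peaks. A call overlapped the peak by at least 1 bp in replicate 1 for 331 peaks, in replicate 2 for 331 peaks and in both for 330 peaks (99.4%, 95% Wilson interval 97.8 to 99.8%). Peaks entered the list through their reproducibility, so this share describes the selection. The replicate signals had a Spearman rho of 0.81 across the 330 peaks, which share their libraries and are not independent. The median signal was 69.6 in replicate 1 and 52.7 in replicate 2. Replicate 1 was higher at 260 of the 330 peaks, and the log2 ratio of replicate 1 to replicate 2 had a median of 0.35 and an SD of 0.50. The scale of the score may differ between the lists, so peaks were also compared by rank, and the median difference in rank was 738 of 30000 calls. The summits of the replicate calls lay a median of 23 bp apart. Some neighbouring peaks met the same call, which was so for 14 peaks in replicate 1 and 16 in replicate 2.

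**Figure D1:**
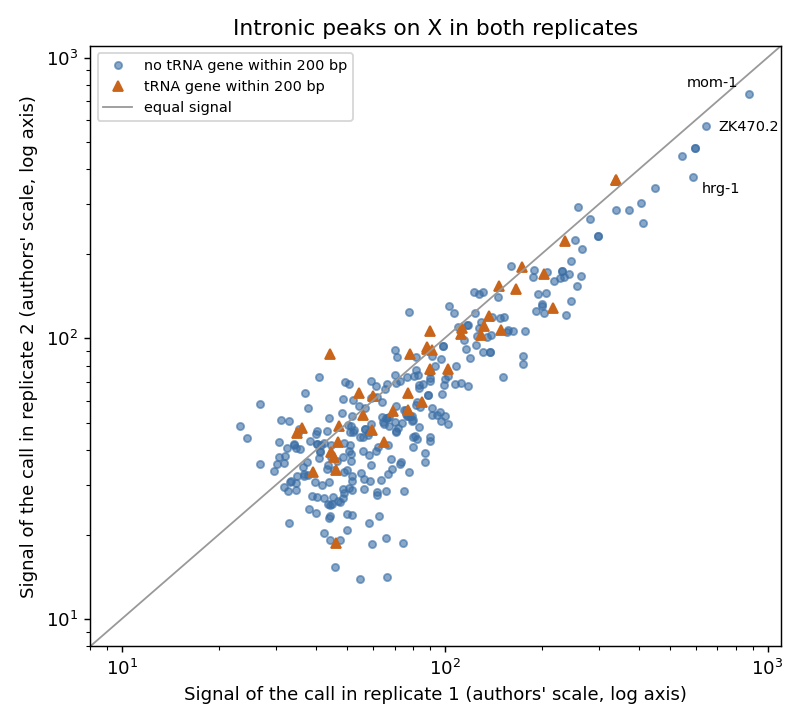
Signal of the replicate 1 call (x axis) against that of the replicate 2 call (y axis), both on log axes in the authors' units, for the 330 intronic X peaks called in both replicates. Triangles stand for peaks with a tRNA gene within 200 bp and the line marks equal signal. Most points, 260 of 330, lie below the line, and the scatter is widest among the weak peaks.

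The 5 peaks that differed most in rank were weak, and all 5 ranked higher in replicate 1. The widest gap was in nfki-1, which encodes an I-kappa-B-like protein, where a peak of signal 80.3 had rank 3431 in replicate 1 and rank 16406 in replicate 2. A peak in dyc-1, which encodes a protein that acts with dystrophin in muscle, ranked 4312 and 16812. The next were F46G10.1 (5241 and 14713), peb-1 (2994 and 11271) and C01C10.2 (3887 and 11461). Split by signal into 5 sets, the 67 strongest peaks had a median rank difference of 173 and the 66 weakest one of 2136. Of the 2 peaks without a call in 1 replicate, the one in F43C9.1 was weak, with a signal of 73.9, a replicate 1 call of 52.9 and no call in replicate 2. The other was in sma-9, which encodes a zinc finger protein of the BMP-like pathway, and had a signal of 323. Its replicate 2 call had a signal of 181, and the nearest replicate 1 call, of signal 161, began 3 bp beyond its end.

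Below the threshold, the relaxed list of the pooled reads held 1204 further calls in such intronic positions on X. Both replicates held a call at 727 of them (60.4%), and the replicate signals there had a Spearman rho of 0.40. Just inside the threshold were peaks in mbl-1, mob-2 and abl-1, with signals of 63.4, 63.7 and 63.7. Just outside it were calls in F43B10.1, nhr-1 and daf-12, with signals of 62.997, 62.8 and 62.8. Gene starts set another limit. The nearest peak beyond the upstream edge of a window was the one in tsp-21, 1068 bp upstream of nra-3, and the nearest excluded intronic summit lay 821 bp upstream of F31B12.3. At the downstream edge C15H9.4 was kept at 105 bp from a start. At exons, C55B6.1 was kept with its summit 2 bp into the intron, and a summit 2 bp into an exon of ztf-14 was excluded.

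Intronic peaks were denser on X than on any autosome. The sequence in which a summit could meet the definition, called eligible here, amounted to 5.23 Mb or 29.5% of X. It held 63.5 peaks per Mb, against 54.4 on chromosome II, 49.7 on IV, 48.7 on III, 45.5 on I and 39.3 on V. The autosomes together held 47.2 per Mb, and the ratio of X to autosomes was 1.35. When the same number of strongest calls was taken from 1 replicate alone, X held 65.6 per Mb and the autosomes 46.2 in replicate 1, and 60.1 and 47.4 in replicate 2. The replicates thus differed less from each other than X did from the autosomes together. Against the highest autosome this did not hold in replicate 2. Chromosome II held 56.0 per Mb there, closer to the 60.1 of X than the replicate values of X were to each other. Peaks of other kinds were also denser on X than on the autosomes together, but not denser than on every autosome. Intergenic sequence held 83.0 peaks per Mb on X and 67.1 on the autosomes, promoter windows 182 and 143, and exons 18.4 and 13.3. Chromosome III held 89.8 in intergenic sequence and 190 in promoter windows, chromosome I 83.7 and 186, and chromosome IV 21.6 in exons.

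**Figure D2:**
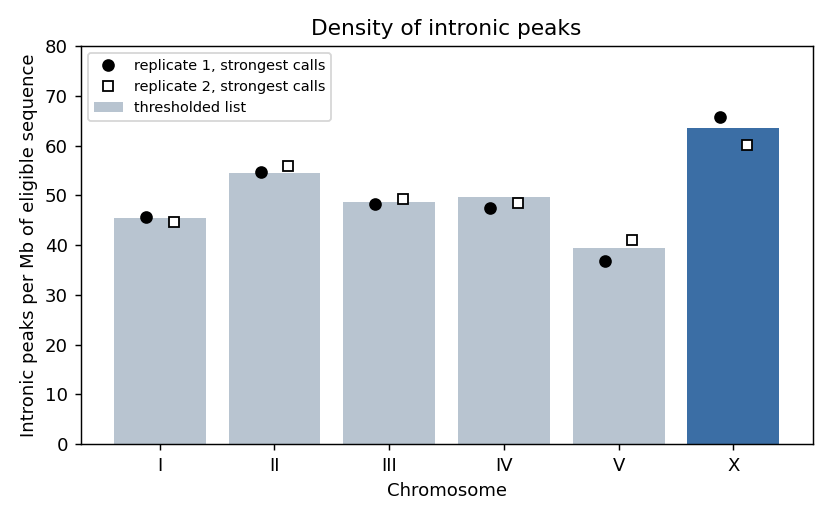
Intronic peaks per Mb of eligible sequence (y axis) on each chromosome (x axis). Bars show the thresholded list, filled circles the strongest 6626 calls of replicate 1 and open squares those of replicate 2. X stands at 63.5 per Mb and the highest autosome, II, at 54.4, and both replicate values of X lie above those of every autosome.

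Along X the density was uneven. Over 3 equal spans it was 51.5 per Mb of eligible sequence at the left end (91 peaks), 73.2 in the middle (38.9% of the peaks) and 66.0 at the right end (112 peaks). Among 10 equal spans the first held the fewest, 15 peaks or 30.7 per Mb. Number 8 held 53 peaks or 101 per Mb, and number 5 held 44 peaks or 90.8 per Mb. The nearest other peak of any kind lay a median of 2021 bp away, and 81 peaks (24.4%) had one within 1000 bp.

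The peaks lay in long introns. The median intron with a peak was 1958.5 bp long (quartiles 641 and 5414 bp), whereas the median of all 18803 introns of X genes was 61 bp and the median eligible base lay in an intron of 876 bp. Those longer than 5000 bp held 91 peaks, 27.4% of the peaks in 16.5% of the eligible sequence, or 106 per Mb. Those above 2000 and up to 5000 bp held 73 peaks or 99.5 per Mb. The density was 60.8 per Mb in introns above 1000 and up to 2000 bp, and 21.2 per Mb, from 16 peaks, in those of at most 200 bp. Weak and strong peaks had similar introns, with a median length of 2279 bp for the 67 strongest and 1886 bp for the 66 weakest.

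**Figure D3:**
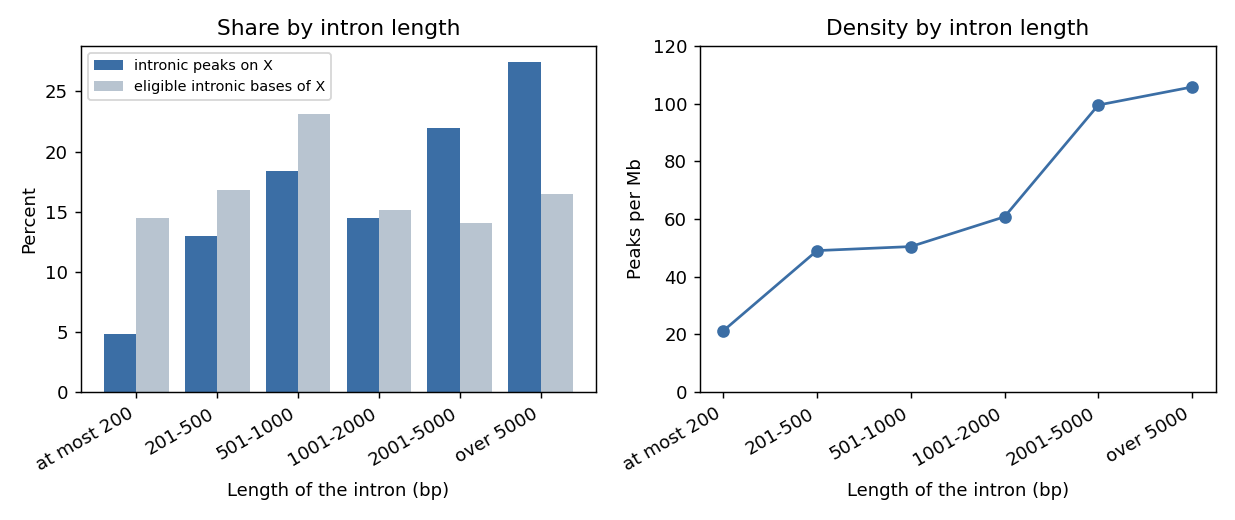
Left, percent of the 332 peaks and percent of eligible bases of X (y axis) in introns of 6 length classes (x axis, bp). Right, peaks per Mb of eligible sequence in the same classes. The density was lowest at 21.2 per Mb in the shortest introns and highest at 106 per Mb in the longest.

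First introns and internal transcript starts held more peaks than their length would give. An intron that is first in some transcript held 172 of the 332 peaks (51.8%, 95% Wilson interval 46.4 to 57.1%), and such introns made up 37.7% of the eligible bases. The definition excluded only the outermost start of each gene. In a window of the same size at another annotated coding transcript start lay 80 peaks (24.10%, interval 19.81 to 28.98%), and 10.01% of the eligible bases. All 80 of these starts belonged to the gene that held the peak, 79 summits were upstream of the start and 48 within 500 bp upstream. The counts of 80 and 79 were nearly fixed by the definition. It leaves out gene starts and exons, and the window reaches 1000 bp upstream but 100 bp downstream. Of these peaks 63 lay in a first intron. Their median signal was 129.1, against 115.3 for the other intronic peaks. On the autosomes 28.7% of the intronic peaks lay at such starts, in 10.5% of the eligible bases. Among the named genes, hrg-1, which encodes a haem transporter, had its summit 146 bp upstream of a shorter transcript. In myrf-2, which encodes a membrane-bound transcription factor, the summit lay 234 bp upstream of one, and in sir-2.2, a sirtuin gene, 196 bp upstream.

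Measured from the start of the gene that held it, the median peak lay 2898 bp downstream, and 69 peaks lay within 1000 bp. The nearest coding gene start was a median of 2634 bp and at most 13328 bp away, and for 80 peaks it was that of another gene. The nearest exon was a median of 340.5 bp away.

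The strongest peak of the group lay in intron 7 of mom-1, whose product is the worm Porcupine protein that acylates Wnt ligands. It spanned chrX:6296290-6296837, had a signal of 1609 and ranked 11 in the whole list, with signals of 877 in replicate 1 and 743 in replicate 2. The next gene start was that of cest-16, with the summit 3380 bp upstream of it. The second, at chrX:4142638-4143016 in intron 4 of ZK470.2, had a signal of 1203 and replicate signals of 644 and 573. In Y41G9A.17 the peak at chrX:2996882-2997405 had a signal of 1061, with 595 and 477 in the replicates. Each of these 3 was higher in replicate 1, as were 18 of the 20 strongest.

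Next in signal came peaks in genes of varied function. The peak in mdl-1, which encodes a Mad-like helix-loop-helix protein, had a signal of 982 (542 and 447 in replicates 1 and 2) and lay 725 bp into the gene. In hrg-1 the signal was 970, with 588 and 376. For aak-2, a catalytic subunit of AMP-activated kinase, the signal was 794, with 447 and 343, and the gene held further peaks of 263 and 110. Further down the list, aakg-4, a regulatory subunit gene of the same kinase, held peaks of 280.4 and 280.2. The peak in bcat-1, for a branched-chain aminotransferase, had a signal of 670, with 411 and 257. In pdk-1, a kinase of insulin signalling, it was 659, with 373 and 286. The remaining peaks among the 20 strongest had signals from 415 to 705 and lay in ZK1193.2, H28G03.2, tsp-21, F09A5.3, abts-4 (with 2 peaks), myrf-2, nhr-3, sulp-3, lin-14, sma-9 and sir-2.2. All 20 were called in both replicates, with lowest ranks of 369 in replicate 1 and 545 in replicate 2. Of the 20, 8 lay in a first intron, 7 at an internal transcript start and 2 at a tRNA gene.

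The 332 summits fell in 220 host genes, which were 8.06% of the 2731 coding genes of X and 8.62% of the 2553 genes with eligible intronic sequence. Hosts were long, with a median of 6833 bp against 2548 bp for all X coding genes. Their median eligible sequence was 3785 bp, against 1119 bp for all genes that have any. A single peak lay in 167 of the genes, 28 held 2, 13 held 3 and 12 held 4 or more, and 4 summits lay inside a pair of overlapping genes.

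ZK470.2 held the most, 10 peaks with a summed signal of 2574. Their signals were 1203, 356, 226, 188, 149, 111, 105, 105, 65.4 and 65.2, and 7 of them lay in intron 4, of 8548 bp. The heterochronic gene lin-14, whose transcription factor sets early larval fates and is turned down between the first and second larval stages, held 8 peaks with a summed signal of 1383. The strongest, 437, lay in its first intron 1952 bp from the start, at chrX:11467366-11467637, and had replicate signals of 246 and 188. Intron 3, 11174 bp long, held 5 others, with signals of 258.8, 164.9, 114.7, 102.0 and 100.2. The peaks of 164.9 and 100.2 overlap and met the same calls, 99.2 in replicate 1 and 93.9 in replicate 2. F49E2.5 also held 8 peaks, all weaker, from 75.3 to 197. The other genes with 4 or more were H18N23.2 (7 peaks), unk-1, scd-1, F46H5.3 and mob-2 (6 each), F09A5.3 (5), and abts-4, sma-9 and ivns-1 (4 each).

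**Figure D4:**
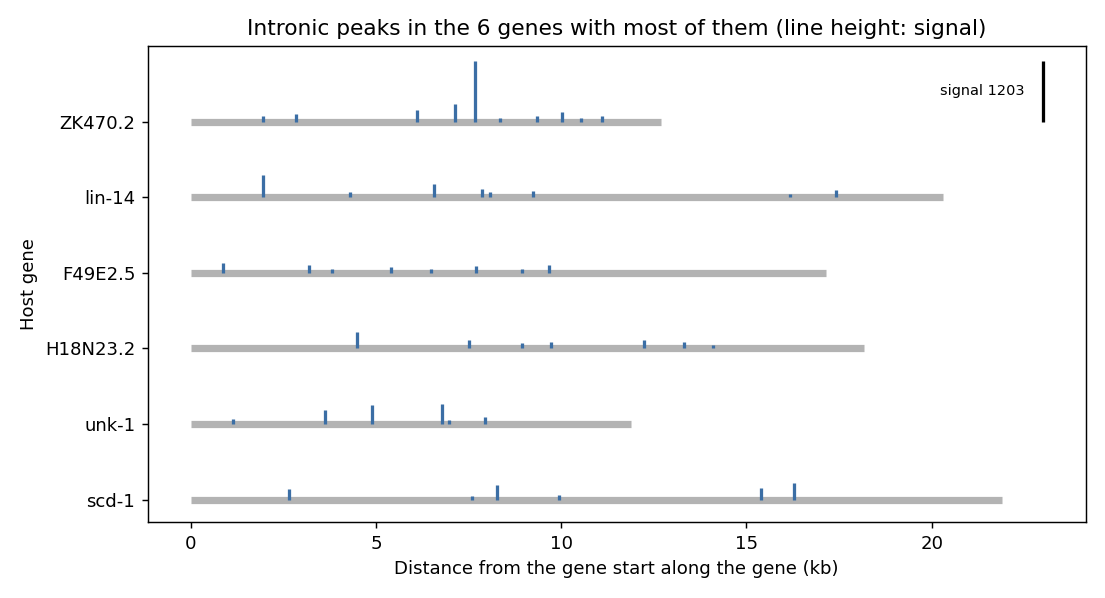
Position of each intronic peak (vertical line, height proportional to the authors' signal, scale bar at upper right) along the 6 host genes with the most peaks and the highest summed signal (grey bars, x axis in kb from the gene start). In ZK470.2 the peak of signal 1203 stands above the other 9, and in lin-14 the strongest lies nearest the start.

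Host genes were grouped by name and are given beside the 8.06% of all X coding genes that were hosts. Gene families differ in intron length, so peaks per Mb of eligible sequence are given too, against 63.5 for all of X. Nuclear hormone receptor genes, taken by the name prefix nhr-, were hosts in 7 of 23 cases (30.4%). They held 9 peaks in 128 kb or 70.2 per Mb, so their share of hosts stood above that of X while the density was close to it. The prefix leaves out receptor genes with other names, such as daf-12, which is counted in other lists. The strongest were in nhr-3 (464), nhr-17 (295), nhr-40 (235) and nhr-14 (223). The peak in nhr-3, at chrX:14560389-14560671, had replicate signals of 266 and 208, and the summit in nhr-17 lay 20 bp from a tRNA gene.

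Other developmental transcription factor genes were hosts in 7 of 33 cases, with 15 peaks or 146 per Mb. Of these peaks 8 were those of lin-14. Next came daf-12, the receptor for the steroid hormones that set larval timing and dauer entry, with 239, then fkh-9 with 148 and lsy-2 with 128.6. The daf-12 peak lay in the first intron, 1789 bp from the start, and had a signal of 123 in replicate 1 and 146 in replicate 2. The peak in elt-3, a GATA factor of the epidermis, was near the threshold at 75.5. Of the 6 heterochronic genes on X, lin-14 and daf-12 were hosts and together held 9 peaks or 193 per Mb. For homeobox genes the count was 0 hosts of 25, in 79.1 kb of eligible sequence. It allows a share of up to 12%, above the 8.06% of all X coding genes, so the share of hosts shows no shortage. Of 3 bZIP genes on X, with 2.08 kb, 0 were hosts, which allows a share of up to 100%.

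Genes named for signalling kinases and phosphatases were hosts in 7 of 23 cases, with 12 peaks or 104 per Mb. They included pdk-1 (659), kin-20 (412), pkc-2 (147) and the protein kinase A regulatory subunit gene kin-2 (128.99). The name prefixes also took in sma-9 (417) and daf-12, which encode transcription factors. Without them the list had 5 hosts among 21 genes, with 7 peaks or 83.9 per Mb. Adhesion, matrix and guidance genes were hosts in 6 of 44 cases, with 8 peaks or 55.4 per Mb. They were led by the tetraspanin gene tsp-21 (628) and the hemicentin gene him-4 (371), and the netrin gene unc-6 held a peak of 76.3.

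Ion channel and gap junction genes had 310 kb of eligible sequence, more than any other of the 12 lists, and held 7 peaks or 22.6 per Mb in 5 of 65 genes. The strongest were in the innexin gene unc-9 (222) and the T-type calcium channel gene cca-1 (181). G protein-coupled receptor genes other than chemoreceptors held 2 peaks in 191 kb or 10.5 per Mb, in gnrr-3 (114) and in ser-2, a tyramine receptor gene (70.5). The summit in ser-2 was 1 of those with a tRNA gene within 200 bp. Among RNA-binding and splicing regulators, the muscleblind gene mbl-1 was the host in 1 of 8 cases. Of 14 muscle genes, the pharyngeal myosin gene myo-2 held 1 weak peak (68.3), and of 6 genes of dosage compensation and sex determination, sex-1 held 1 (102).

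Genes for tRNAs lay at 40 of the 332 summits (12.05%, 95% Wilson interval 8.97 to 15.99%), counting those within 200 bp. Sequence that close to a tRNA gene made up 0.638% of the eligible bases. Counting only the nearest tRNA gene of each, the 40 peaks met 39 of the 92 tRNA genes in eligible sequence of X, out of 276 on X. The summit was inside the tRNA gene at 12 peaks, upstream at 25 and downstream at 3, and within 50 bp at 37. The tRNA gene had the strand of the host in 16 cases and the opposite strand in 24. The B box was present within 100 bp of the summit at 34 of the 40 and at 11 of the other 292. The B box lies within the tRNA gene itself, so its share at the 40 follows largely from how they were chosen. The autosomes had 76 of 1221 intronic peaks at a tRNA gene (6.22%), in 0.208% of the eligible bases.

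The tRNA peaks on X had signals from 66.0 to 705 with a median of 168, against 114 for the other 292, and a median GC content of 46.3% against 43.3%. Of these peaks 10 were among the 67 strongest of the 332 and 2 among the 66 weakest. The strongest was in ZK1193.2 at chrX:410006-410504, with replicate signals of 339 and 365, one of few strong peaks that were higher in replicate 2. Its summit lay 188 bp from the tRNA gene, with no B box within 100 bp. It was also 260 bp upstream of an internal transcript start of ZK1193.2. A further summit in the same interval lay inside that tRNA gene, had a signal of 176 and met the same replicate calls. The log2 ratio of replicate 1 to replicate 2 had a median of 0.14 (SD 0.37) over the tRNA peaks and 0.36 (SD 0.50) over the others. Replicate 1 was higher at 26 of 40 and at 234 of 290. Autosomal intronic peaks showed 0.08 at tRNA genes and 0.34 elsewhere. Whether these peaks depend on the tagged receptor was not tested.

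Other non-coding genes, annotated as ncRNA, lay within 200 bp of 78 summits (23.5%), in 6.23% of the eligible bases, and 37 summits were inside one. Together, 98 summits (29.5%) had an annotated non-coding gene of some kind within 200 bp, in 7.15% of the eligible bases. For microRNA, snoRNA and piRNA genes the count was 0 of 332, which allows a share of up to 0.904%. These genes had 0.111, 0.0409 and 0.364% of the eligible bases within 200 bp. All of these lie below that limit, so the counts show no shortage. For snRNA genes the count was also 0, but 0 eligible bases lay that close to one, so it was fixed in advance.

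The summits were richer in GC than the introns around them. Within 100 bp either side of the summit the median GC content was 43.8% (quartiles 40.3 and 47.3%). It was 34.8% in flanks 300 to 500 bp away and 31.8% in all 16782 windows of that length that tile the eligible sequence of X. Autosomal intronic peaks had a median of 44.3% and X promoter peaks 45.3%. GC content was 45.8% over the 67 strongest and 42.3% over the 66 weakest.

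Short motifs, searched on both strands in the same windows, differed between summits and their surroundings, and GC content moved with them, so its part in these shares was not tested. GAGAGA was present at 128 summits (38.6%), in 11.9% of flanks and in 8.82% of eligible windows. It was present at 36 of the 67 strongest (53.7%) and 25 of the 66 weakest (37.9%). It was as common at other peaks, with 42.6% of X promoter peaks, 37.7% of X intergenic peaks and 51.1% of autosomal intronic peaks. CACGTG, the palindromic E-box, was present at 53 summits (16.0%), in 3.46% of flanks and in 2.48% of eligible windows. Its share was 8.60% at X promoter peaks, 9.05% at X intergenic peaks and 10.2% at autosomal intronic peaks. With summits at non-coding genes left out it was 20.5%. An example is the peak in F09A5.3, with a signal of 557.

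The motif AGGTCA, the core element bound by many nuclear receptors, was present at 31 summits (9.34%), in 5.42% of flanks and in 5.50% of eligible windows. The interval on the share at summits was 6.66 to 12.9%, and the 67 strongest and 66 weakest peaks had 8.96% and 9.09%. The GATA site GATAA had nearly equal shares, 36.4% at summits, 36.9% in flanks and 38.4% in eligible windows. It was less common at the 67 strongest peaks (17 peaks, 25.4%) than at the 66 weakest (23 peaks, 34.8%). Runs of T (TTTTTTT) were less common at summits, 22.6% against 38.7% in flanks and 46.4% in eligible windows. Of the 20 motifs first searched, 13 had a higher share at summits than in eligible windows.

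The dosage compensation core GCGCAGGG was rare but stood at some of the strongest peaks. It was present at 4 summits (1.20%), in 17 of 16782 eligible windows (0.101%), at 12 X intergenic peaks (2.53%), at 6 X promoter peaks (1.15%) and at 3 autosomal intronic peaks (0.246%). With so few summits 1 library mattered: the share was 0.583% without replicate 2 and 1.59% without replicate 1. The 4 summits were those of mom-1, with 2 copies printed above, both overlapping peaks of Y41G9A.17 and a peak of svh-5 with a signal of 96.1. The windows of the Y41G9A.17 pair do not overlap, so each holds a copy of its own.

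Further motifs were searched only after strong summits had been read, so their shares describe those sequences. TGATGNAA was present at 32 summits (9.64%), in 4.97% of flanks and in 4.57% of eligible windows. It was present at 11 of the 67 strongest peaks and 5 of the 66 weakest, and among them were ZK470.2, mdl-1, H28G03.2 and bcat-1. Other peaks had it as often, with 11.4% of X intergenic and 9.58% of autosomal intronic peaks. ACACACAC was present at 32 summits as well, in 1.36% of flanks and 1.57% of eligible windows. Its share was 12.05% at X promoter peaks, 9.89% at X intergenic peaks and 11.6% at autosomal intronic peaks.

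**Figure D5:**
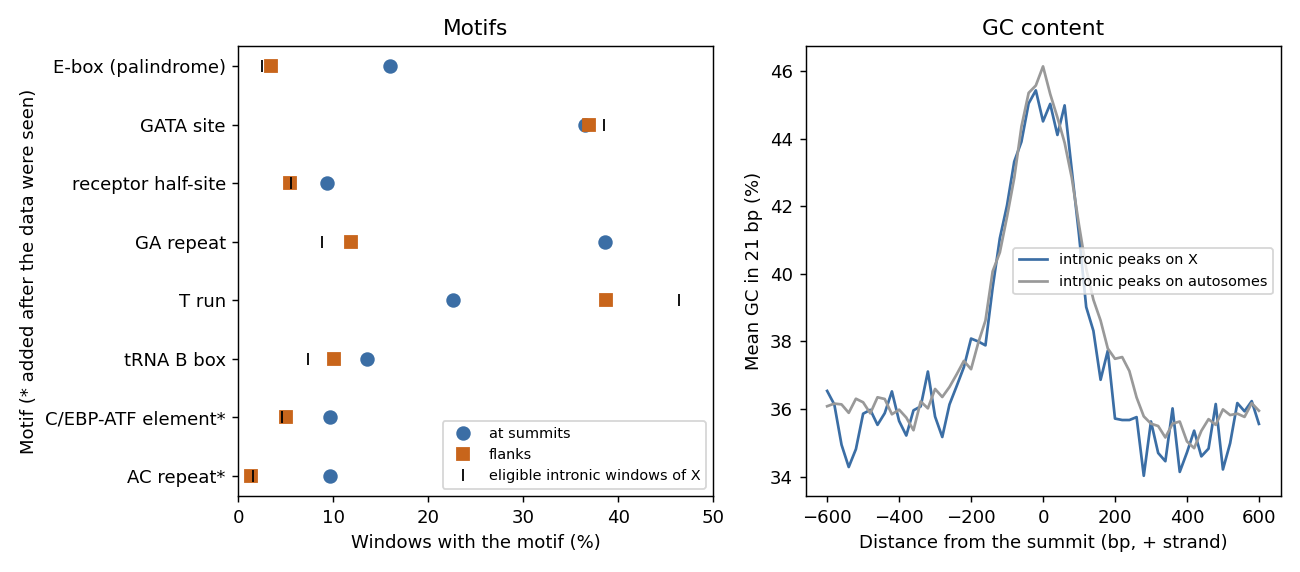
Left, percent of windows, 100 bp either side of the centre (x axis), that hold each of 8 motifs (y axis) at the 332 summits, in their flanks and in all eligible intronic windows of X, with asterisks on motifs added after the data were seen. Right, mean GC content in 21 bp (y axis, percent) against distance from the summit (x axis, bp) for intronic peaks on X and on the autosomes. The GA repeat and the E-box stand well to the right of both backgrounds, the T run stands to the left, and both GC curves peak at the summit.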

How the data were processed

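The authors deposited, for both replicates pooled and for each replicate, relaxed peak lists in ce11 that served as input to the irreproducible discovery rate step, and the list thresholded by it. Per the labels these come from chromatin immunoprecipitation; the name of the peak caller was not given in the sources used here. Each deposited signal value per peak is the authors' score and was used to order and describe peaks. The deposited −log10 q-value was not used to rank them, and the summit was read from the deposited offset. Lists in ce10 were not used.

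Gene models were those of Ensembl release 115 on WBcel235, the same assembly, and sequence was read from its RefSeq genome. Coordinates are 1-based. Members, gene lists and motifs were chosen with earlier results of these data known, and 4 motifs were added after summits had been read. No test was run. Named peaks were the 20 strongest, the 5 whose replicate ranks differed most, up to 10 genes with 4 or more peaks by summed signal, up to 4 peaks per gene list, and those nearest each limit of the definition. Genes named outside these groups, such as act-4, mltn-13, aakg-4, svh-5, ivns-1, and further hosts of the gene lists, and the printed sequences, were chosen after their values were seen. Functions were tested on simulated data. Computation used Python 3.11.15, numpy 2.4.6, pandas 2.3.3, scipy 1.17.1 and matplotlib 3.10.9.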

Additional observations from a re-analysis of the deposited data

How the results depend on the processing

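No paired analysis was possible because both replicates belong to 1 group. With windows at every coding transcript start the number of peaks was 252 of 332, and by construction the share at such starts was 0. Density was then 53.6 per Mb, the first-intron share 43.3%, the share of X coding genes that were hosts 6.48%, and the median signal 0.946 of the list median (0.966 as reported). With only the stronger 50% of the list, 159 remained, at 30.4 per Mb, with a host share of 4.25%, a relative median signal of 0.985 and a GC content of 45.3%; fewer peaks enter by construction. Without peaks at non-coding genes, density was 48.2 per Mb, the host share 5.79%, the relative median signal 0.940, the GC content 42.3% and the non-coding share 0. Within 500 bp the non-coding share was 34.6%, and over 50 bp either side the GC content was 44.6%. The share called in both replicates was 96.99% with at least 50% of the peak covered and 95.5% with summits within 100 bp. Leaving out 1 replicate gave 314 to 343 peaks, 60.1 to 65.6 per Mb and a relative median signal of 0.952 to 0.968. The ratio of X to autosomal density ran from 1.24 to 1.43 over the alternatives run. It was lowest without peaks at non-coding genes on X and autosomes alike, and highest with windows at every coding transcript start. Motif shares moved with window length by construction, in most of the 41 motif values that moved of 264. The dosage compensation core GCGCAGGG was at 1.20% of summits as reported and at 0.583% without replicate 2. Where no construction is named, the cause was not tested. Without a stated depth, the precision of a signal value could not be derived.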
